A study of Mus musculus with 6 samples.

Results

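Of the 27095 promoter windows in the deposited count table, 469 autosomal windows lay more than 300 kb from any other window on both sides, so that each stood alone in a stretch poor in promoters. The rule measured the distance between windows, and the body of the gene itself may fill part of that stretch. They were chosen by position alone, from the start and end of each window, and no count entered the choice. The remaining 25073 windows on chromosomes 1 to 19 served for comparison, taken at the same mean count. Promoter accessibility was measured by ATAC-seq, in which the Tn5 transposase cuts open DNA, in medullary thymic epithelial cells (mTECs) with high surface MHC class II. There were 3 libraries from wildtype mice and 3 from Kat7 knockout mice, described as biological replicates, all on the C57BL/6 background and of unstated age. The sources used here do not give the driver of the deletion, the deleted part of Kat7 or the number of mice behind each library, and no other allele or treatment is named for either group.

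Mature mTECs show developing T cells a wide range of proteins otherwise made in single tissues, under the control of regulators such as AIRE, and T cells that react strongly to them are removed or diverted. KAT7, also known as HBO1, belongs to the MYST enzymes and acetylates histone H3, a mark found at gene starts. Gene deserts are long stretches of the genome without annotated genes. The genes that border them are often long and are often used in brain wiring or embryonic patterning.

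The Kat7 window held 291, 238 and 272 CPM (counts relative to the TMM-scaled library size) in the wildtype libraries and 11.9, 13.2 and 38.3 CPM in the knockout libraries, which do not overlap. Library totals ranged from 15482439 to 19832326 counts. The limit set by a count of 0, taken as 3 counts, was 0.154 to 0.192 CPM in the 6 libraries. All 14 mTEC markers had signal, with a median of 113 CPM in wildtype and a summed level of 1780 to 1840 CPM in wildtype and 1640 to 1960 CPM in knockout libraries; Aire itself was at 73.9 ± 3.03 CPM (SD, n = 3) in the wildtype and 63.3 ± 5.84 CPM (SD, n = 3) in the knockout libraries. Of the 14, Ccl22 fell by 1.02, Ly6d by 0.71 and Ctss by 0.36 on the log2 scale, Krt5 rose by 0.61, and the others, Aire included, did not pass the test (edgeR). Among markers of other cells, the summed level of 5 cortical epithelial genes went from 246 to 300 CPM in wildtype to 435 to 523 CPM in knockout, most of it from Foxn1 (92.9 and 300 CPM on average); Psmb11 rose too, and Prss16, Ly75 and Cxcl12 did not pass the test. That of 6 thymocyte genes went from 25.4 to 29.2 CPM to 33.3 to 34.6 CPM. The summed levels went the other way for 3 B-cell genes (19 to 21.7 against 14.7 to 15.4 CPM), 5 myeloid genes (48.4 to 54.5 against 37.0 to 39.4 CPM), 4 mesenchymal genes (108 to 114 against 87.9 to 92.8 CPM) and 4 endothelial genes (39.8 to 43.3 against 31.8 to 34.7 CPM). Both of the last lists were split, since Pdgfra, Pdgfrb, Pecam1 and Kdr fell (edgeR) while Dcn rose by 0.90 and Tek by 0.72 on the log2 scale. In the thymocyte list, Cd3g averaged 0.229 CPM in wildtype and 0.22 CPM in knockout, close to the limit set by a count of 0. It did not pass the filter on low counts. No other defining marker of these lists was near that limit on average. The part of these other cells in the results below was not tested. In bulk libraries, fewer cells with an open promoter and less accessibility per cell cannot be told apart.

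The isolated windows lay on every autosome, at a median of 444.7 kb from the nearest other window, against 12.71 kb for all autosomal windows, and 43 of them were more than 1000 kb away from any other. They carried between 1.29% and 1.33% of all counts in the wildtype libraries and between 1.16% and 1.21% in the knockout libraries. Of the 469, 431 were found in the RefSeq table of assembly GRCm38.p6, which called 307 protein-coding, 85 lncRNA, 14 pseudogenes, 13 transcribed pseudogenes, 9 miRNA and 3 other RNA genes. Genes with an isolated window had a median length of 104.5 kb, against 14.96 kb for the genes of the other autosomal windows. The distance limit cut through a continuous range: Bend5 and the mechanosensitive channel gene Piezo2 lay just beyond 300 kb, while the predicted genes Gm10440 and Gm8069 on chromosome 5, each the nearest neighbour of the other, lay just within it and were left out.

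The 4 promoters shown differed in base composition. They are the 300 bases of the RefSeq promoter (250 before and 50 after the gene start, GRCm38.p6, 5′ to 3′ on the gene's strand) of the 2 windows that fell most in the knockout, of the window that rose most, and of the most accessible isolated window whose change did not pass the test. Capitals mark each CpG, the site of DNA methylation in mammals.
Plppr1, chr4:49059212-49059511, plus strand, fell most: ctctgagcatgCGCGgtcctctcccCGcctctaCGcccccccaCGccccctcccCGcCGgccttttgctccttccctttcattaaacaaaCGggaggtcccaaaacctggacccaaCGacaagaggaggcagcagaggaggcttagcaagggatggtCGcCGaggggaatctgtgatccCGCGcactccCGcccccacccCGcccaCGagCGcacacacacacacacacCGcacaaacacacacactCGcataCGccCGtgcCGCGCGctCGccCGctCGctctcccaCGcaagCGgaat
Npsr1, chr9:24097768-24098067, plus strand, fell next most: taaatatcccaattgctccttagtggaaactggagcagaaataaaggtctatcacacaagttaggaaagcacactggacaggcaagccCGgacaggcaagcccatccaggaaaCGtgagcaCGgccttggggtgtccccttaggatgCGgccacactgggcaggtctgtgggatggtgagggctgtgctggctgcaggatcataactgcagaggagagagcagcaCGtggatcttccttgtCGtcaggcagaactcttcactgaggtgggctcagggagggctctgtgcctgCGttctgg
Gm10823, chr16:27849680-27849979, plus strand, rose most: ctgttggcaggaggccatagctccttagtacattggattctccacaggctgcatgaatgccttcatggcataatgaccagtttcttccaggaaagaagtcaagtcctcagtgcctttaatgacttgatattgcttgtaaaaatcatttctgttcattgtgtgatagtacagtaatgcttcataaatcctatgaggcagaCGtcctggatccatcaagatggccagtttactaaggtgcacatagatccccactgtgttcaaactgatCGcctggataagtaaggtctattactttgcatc
Tle4, chr19:14598134-14598433, minus strand, most accessible: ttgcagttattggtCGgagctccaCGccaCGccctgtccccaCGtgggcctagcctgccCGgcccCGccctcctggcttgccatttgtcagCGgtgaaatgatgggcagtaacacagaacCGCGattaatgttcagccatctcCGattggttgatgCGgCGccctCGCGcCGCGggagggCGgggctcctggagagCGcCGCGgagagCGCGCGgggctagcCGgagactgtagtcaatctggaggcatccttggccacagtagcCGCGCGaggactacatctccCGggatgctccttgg
The Plppr1 promoter had 29 CpG and 65.7% G and C, close to the 28 CpG and 65.0% of Tle4, although the former fell most and the latter was the most accessible isolated window. Npsr1, next to Plppr1 in the size of its fall, had 7 CpG and 56.0% G and C, and Gm10823 had 2 CpG and 42.7%; the median of 32851 RefSeq promoters was 7 CpG and 52.7%. Exact matches on both strands, some of which may overlap each other, were sought to 14 short motifs. The KLF/SP box GGGCGG was found 2 times in Plppr1 and 2 times in Tle4, and at least once in 35.7% of all promoters. The E-box CACGTG was found in Npsr1 and Tle4 (7.15% of all promoters), and the CTCF core AGGGGGC and the NRF1 letters GCGCATG in Plppr1 (10.6% and 3.91%). Gm10823 held none of the 14. Such matches describe the letters and do not show that a factor binds. A RefSeq promoter was found for 290 of the 469 windows, or 61.8%, so no comparison of base composition over the whole group was made.

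Isolated promoters lost accessibility more often than they gained it in the absence of KAT7. Of 463 that passed the filter on low counts, 148 fell and 34 rose at an adjusted p of 0.05 (edgeR quasi-likelihood test, Benjamini-Hochberg over all 24817 windows tested), and 281 did not pass the test. The share that fell was 32.0%, against a background of 20.2% of all windows tested. The other autosomal windows fell in 21.1% when weighted to the same mean counts, and those of full length that share no base with another window in 21.6%. The share that rose was 7.34%, against a background of 6.36% and against 5.76% of the other autosomal windows at equal mean count. A fall of at least 2-fold was called in 95 isolated windows (20.5%), against 7.28% of all windows and 7.57% of the others at equal mean count, and a gain of that size in 5, against a background of 0.886%. In 159 isolated windows (34.3%) every knockout library was below every wildtype library, and in 54 (11.7%) every one was above; these shares were 24.6% and 13.5% over all windows. The median log2 fold change of the isolated windows was -0.02, and that of all windows 0.04, but the medians of the isolated windows differed in sign between levels of mean count, as given below; the mean was -0.25, against -0.06 for the others at equal mean count. These shares describe the group, and no test was made over the group as such. The 6 windows that failed the filter, with means of 5.17 to 13.7 counts, were those of C230029F24Rik, Gm9931, Gm6634, Mir1187, Mir383 and a gene model without a symbol.

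**Figure D1:**
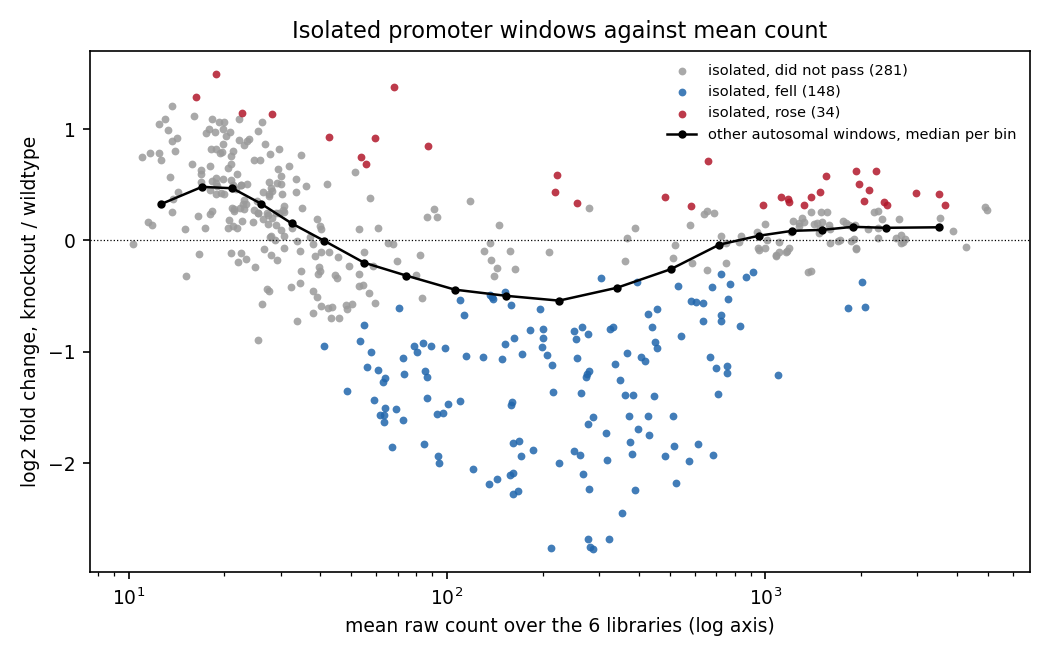
Log2 fold change (knockout over wildtype, vertical axis) of the 463 tested isolated windows against their mean count over 6 libraries (log axis); blue points fell (148), red points rose (34), grey points did not pass the test, and the black line joins the medians of the other autosomal windows in 20 bins. Falls of more than 2 log2 units sit at middle counts, and at high counts the points lie close to the line.

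The calls depended on the mean count. In the lowest quartile of all tested autosomal windows by mean count (6.83 to 36.3 counts), 0 of 152 isolated windows fell and 4 rose (edgeR), and 1.28% of the others fell and 2.14% rose. The gains there went from 0 (when wildtype library 1 or knockout library 2 or 3 was left out) to 50 of 150 without knockout library 1, where 25.1% of the others rose. At an unadjusted p of 0.05, 1 of the 152 fell and 22 rose, and DESeq2 called 0 and 4; 49 of the 152 were protein-coding. In the next quartile (up to 183.5 counts), 61 of 123 fell, or 49.6%, against 32.1% of the others. In the third (up to 1081 counts), 83 of 116 fell, or 71.6%, against 46.2% of the others. Over these middle quartiles the mean log2 fold change was -0.69 and -0.90 in isolated windows and -0.31 and -0.35 in the others. In the top quartile the direction of the calls changed: 4 of 72 fell and 17 rose, or 23.6%, against 3.94% and 9.46% of the others. Without wildtype library 1, 6 isolated windows of the top quartile rose (8.11%, others 3.07%), and with library totals as the only scaling, 29 did (40.3%, others 33.5%).

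The finer bins placed the peak of loss at a median of 341.7 counts, where 27 of 31 isolated windows fell (87.1%) and 58.7% of the others did. At a median of 105.8 counts, 12 of 15 fell, against 49.6% of the others. At 716.1 counts the shares were 65.4%, or 17 of 26, and 29.8%. In the 5 bins from a median of 1212 counts upward, 4 of 72 isolated windows fell, 1 of 16 in the lowest of these bins and 3 of 15 at a median of 1883 counts, where 2.73% of the others fell.

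**Figure D2:**
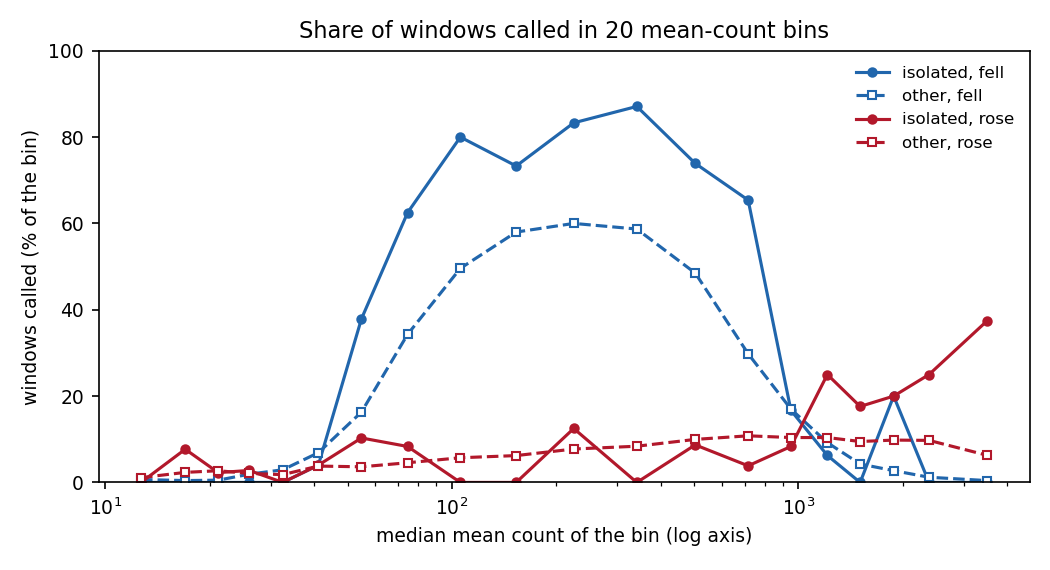
Percent of windows called in each of 20 bins of mean count (log axis, bin medians), for isolated windows (filled circles) and other autosomal windows (open squares), fallen in blue and risen in red. The isolated windows lie above the others for falls between about 55 and 716 counts, with 87.1% against 58.7% in the bin at 341.7 counts.

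The loss was seen in each knockout library, though to unequal extent. Over the middle quartiles, the median log2 ratio of an isolated window to its wildtype mean was -0.80, -0.74 and -0.56 in knockout libraries 1 to 3, against -0.29, -0.23 and -0.20 for the other windows. The wildtype libraries stood between -0.02 and 0.02 on the same scale, which is set to their own mean and so keeps them near 0. Over all isolated windows, the medians were -0.36, -0.06 and 0.001 in the knockout libraries, so knockout library 1 stood apart. Leaving it out left 151 falls and 81 gains among 467 tested isolated windows, and leaving out wildtype library 1 left 141 falls and 12 gains. The number of gains thus moved with single libraries more than that of falls: 131 of the 148 falls and 12 of the 34 gains passed the test with every library left out in turn.

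The share of falls was larger the farther a window lay from its neighbours. At the isolated windows' mean counts, 18.7% of windows that share bases with another fell, 19.9% of those up to 10 kb away, 21.4% of those at 10 to 50 kb, 22.1% at 50 to 100 kb, 24.7% at 100 to 300 kb and 32.0% beyond 300 kb. Falls of at least 2-fold followed the same order from 10 kb outward, with 5.65% up to 10 kb, 7.21%, 9.69%, 11.1% and 20.5%, while windows sharing bases were at 6.81%. Gains differed less between these classes, with 5.23% to 7.34%. Within the isolated windows, 82 of 272 fell at 300 to 500 kb (30.1%, others at the same counts 21.0%), 47 of 149 at 500 to 1000 kb (31.5%, others 20.2%) and 19 of 42 beyond 1000 kb (45.2%, others 25.6%).

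**Figure D3:**
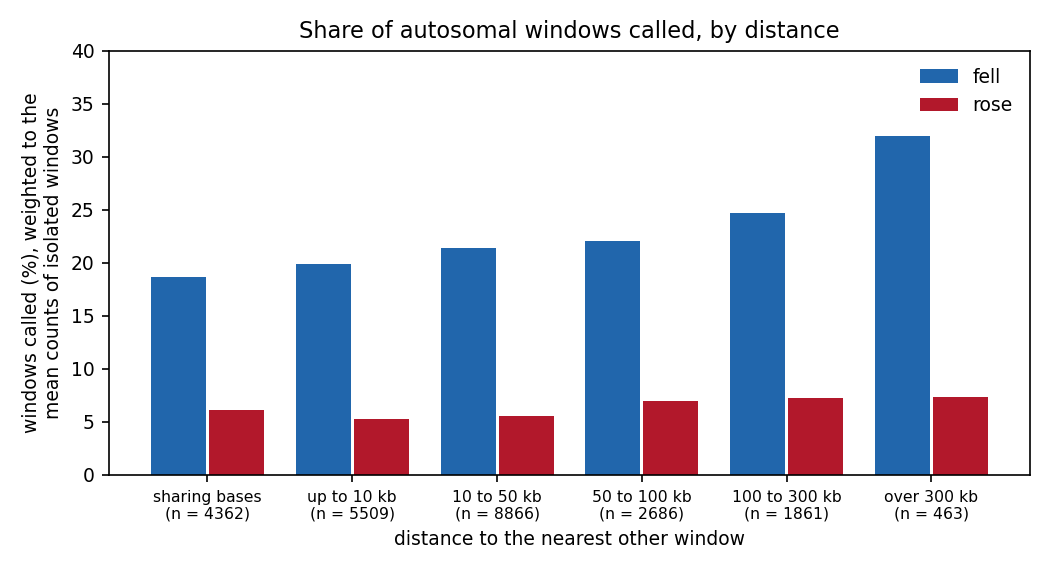
Percent of autosomal windows that fell (blue) or rose (red) in the knockout, by distance to the nearest other window, each class weighted to the mean counts of the isolated windows; n is the number tested. The blue bars go from 18.7% to 32.0% and the red bars stay between 5.23% and 7.34%.

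The likeness of neighbouring changes differed between the classes of distance, though not in strict order. Each tested window was paired with its nearest window, and pairs whose nearest window was not tested were dropped. Pearson's r of the log2 fold changes was 0.30 over 3506 pairs that share bases, 0.48 over 5355 pairs up to 10 kb apart and 0.36 over 8568 pairs at 10 to 50 kb. It was 0.25 over 2602 pairs at 50 to 100 kb, 0.12 over 1810 pairs at 100 to 300 kb and 0.05 over 444 pairs of isolated windows. These pairs share libraries and are not independent, so the values are a description. Unlike the shares above, they were not matched on mean count. The tested windows of the 6 classes had median mean counts of 52.3, 264.8, 282.3, 317.9, 222.3 and 90.8, in the same order. The part of mean count in these correlations was not tested. Among isolated windows of these pairs that fell, the nearest window also fell in 32 of 140, or 22.9%, against 21.4% over all pairs of isolated windows. In pairs up to 10 kb apart, the nearest window also fell for 425 of 1062 windows that fell, against 19.2% over all pairs of that class.

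Long genes made up much of the group and fell more often in both sets. Among isolated windows of genes of at least 300 kb, 67 of 131 fell, or 51.1%, against 37.2% of other windows of such genes at the same mean counts. For genes of 100 to 300 kb, 36 of 85 fell (42.4%, others 34.1%). For genes of 10 to 100 kb, the isolated windows did not stand above the others, with 18 of 111 (16.2%) against 16.4%. Under 10 kb, 20 of 100 fell, against 13%. When all tested isolated windows, 100 of them of genes under 10 kb and 111 of genes of 10 to 100 kb, were set against other windows of genes of at least 100 kb alone, the shares were 32.0% and 26.7%, unlike sets that differ by 5.29 points in place of 10.8. With protein-coding genes only on both sides, the shares were 44.3% and 27.6%. The part of gene length in the distance pattern was not tested beyond these values.

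The largest falls among isolated windows, of 6.76- to 6.82-fold, were at Plppr1, Npsr1 and Lrrc3b. Plppr1, a phospholipid phosphatase-related protein of neuronal membranes, had 30.0, 28.9 and 28.1 CPM in the wildtype libraries and 2.12, 4.30 and 6.42 CPM in the knockout libraries. Its window (chromosome 4, 49056462 to 49061462, mm10) fell by 2.77 on the log2 scale (SE 0.14, edgeR adjusted p = 1.36e-73). Npsr1, the receptor of neuropeptide S, went from 22.2, 19.6 and 22.2 CPM to 1.26, 3.29 and 4.95 CPM. It fell by 2.76 (SE 0.16, adjusted p = 1.1e-53, edgeR). Lrrc3b, a leucine-rich repeat membrane protein, had 30.8, 27.1 and 26.8 CPM in wildtype and 2.01, 4.42 and 6.18 CPM in knockout, a fall by 2.76. In all 3 genes the highest knockout library was far below the lowest wildtype library, and knockout library 1 was the lowest of the 6. Brinp1, a neural protein induced by bone morphogenetic protein and retinoic acid, lay 1451 kb from any other window and went from 32.8, 31.0 and 33.3 CPM to 2.98, 4.42 and 7.77 CPM, a fall by 2.69. Sorcs1, a sorting receptor of the sortilin family at 1580 kb, went from 18.7, 13.1 and 14 CPM to 2.24, 2.81 and 4.46 CPM, a fall by 2.28. The gene model A830018L16Rik on chromosome 1 had 37.9, 30.5 and 34.8 CPM in wildtype and 6.13, 5.38 and 7.399 CPM in knockout, a fall by 2.45. The groups did not overlap in any of these, and the calls passed under every alternative tried.

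**Figure D4:**
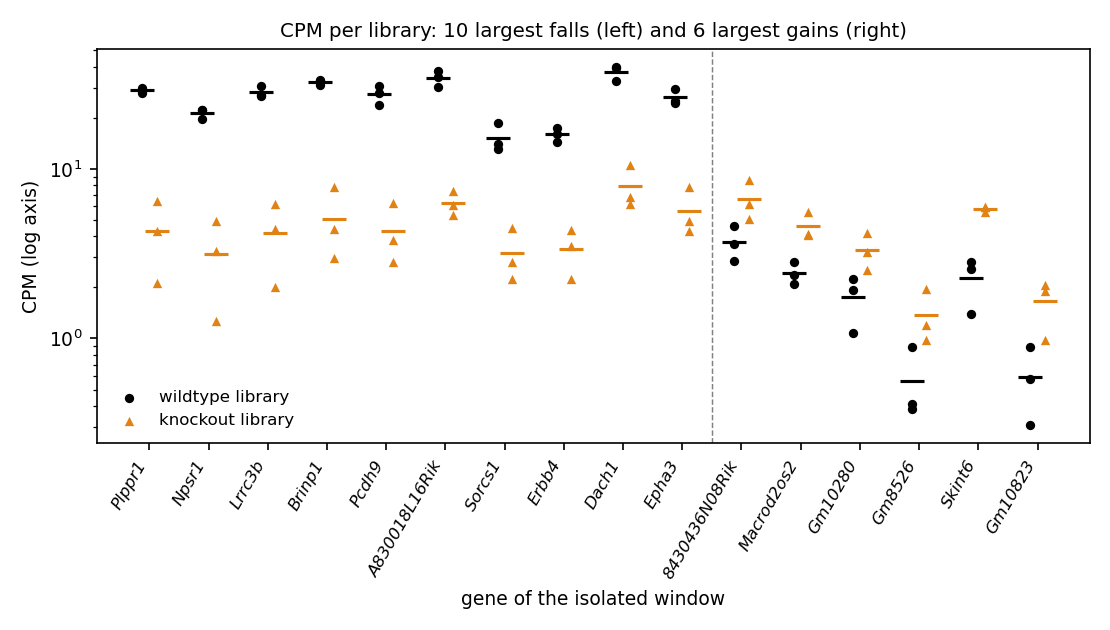
CPM on a log axis in each library for the 10 isolated windows with the largest falls (left of the dashed line) and the 6 with the largest gains (right) among called windows with separated groups; circles are wildtype libraries, triangles knockout libraries and short bars group means. On the left wildtype lies between 13.1 and 39.7 CPM and knockout between 1.26 and 10.6 CPM, and on the right all values lie under 10 CPM.

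Cell adhesion and axon guidance genes were the largest named group, with 52 windows, all tested. Of these 28 fell, 3 rose and 21 did not pass the test, with a median log2 fold change of -0.51. Other windows at their mean counts fell in 31.9%, and other windows of the same role in 39.3%, against 53.8% here. Here and below, shares of other windows of the same role or family are raw and were not matched on mean count. Pcdh9, a protocadherin of neuronal contacts, had 28.1, 23.8 and 30.7 CPM in wildtype and 2.81, 3.82 and 6.30 CPM in knockout, a fall by 2.68 (SE 0.14, edgeR adjusted p = 1.36e-73). Epha3, a receptor tyrosine kinase for ephrin-A ligands, went from 29.7, 25.0 and 24.6 CPM to 4.30, 4.90 and 7.77 CPM, a fall by 2.23. The groups were wide apart in both.

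Of the 5 ephrin receptor genes, 4 fell: Epha3, Epha5 (by 1.93), Epha6 (by 0.79) and Epha4 (by 0.37). Other windows at their mean counts fell in 36.8% and other ephrin receptor windows in 44.4%, against 80.0% here. The call for Epha4 was lost without wildtype library 1 or knockout library 2 and with DESeq2 size factors. That for Epha6 was lost with loess scaling. Epha7, at 1846 kb from other windows, was at 109, 107 and 103 CPM in wildtype and 128, 112 and 112 CPM in knockout; every knockout library was above every wildtype library, but the log2 fold change of 0.14 did not pass the test (adjusted p = 0.424, edgeR). Efna5, an ephrin-A ligand for these receptors, was the most accessible window of the role, at 164, 199 and 166 CPM in wildtype and 265, 230 and 211 CPM in knockout. It rose by 0.42 on the log2 scale (SE 0.13, edgeR adjusted p = 0.00558), and without wildtype library 1 its adjusted p was 0.1. Robo1, a receptor for Slit guidance proteins, rose by 0.35, from 97.4, 116 and 101 CPM to 150, 125 and 125 CPM; without wildtype library 1 its adjusted p was 0.184. Cntnap5b was the third that rose, by 0.39.

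Among 10 cadherin genes, which make proteins for calcium-dependent cell contact, 4 fell: Cdh6 by 2.14, Cdh20 by 1.93, Cdh7 by 1.63 and Cdh18 by 1.17. Cdh6 had 13.8, 13.4 and 13.7 CPM in wildtype and 1.43, 3.40 and 4.46 CPM in knockout. The other 6 did not pass the test, with log2 fold changes from -0.69 in Cdh12 to 0.80 in Cdh19, and 3 of them, Cdh9, Cdh13 and Cdh19, were under 2 CPM in wildtype. Other windows at the mean counts of these 10 genes fell in 24.4%, and 4 of 12 other cadherin windows fell. Of 6 protocadherin and Fat genes, 3 fell, namely Pcdh9, Pcdh15 (by 0.54) and Pcdh20 (by 0.49, lost when wildtype library 3 or knockout library 1 or 2 was left out). Other windows at the mean counts of these 6 fell in 34.1%. Of 8 other protocadherin and Fat windows 4 fell, the same share as among the isolated ones. Of 7 contactin and contactin-associated genes, Cntnap2 fell by 1.01, Cntn5 by 1.00 and Cntnap5a by 0.47, and Cntnap5b rose. These falls made up 42.9%, against 34.9% of other windows at the same mean counts. All 5 other windows of these contactin families fell.

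The 5 windows farthest from any other were all of this role, and their changes differed in size. Lrrc4c, whose protein binds netrin-G at synapses, had the largest distance of all, 3024 kb, and was at 61.0, 72.2 and 65.9 CPM in wildtype and 65.8, 59.96 and 54.9 CPM in knockout. The groups overlap, and its log2 fold change of -0.14 did not pass the test. Cntnap5a, at 2276 kb, had 10.9, 8.12 and 11.7 CPM in wildtype and 6.93, 8.36 and 7.03 CPM in knockout. It fell by 0.47 on the log2 scale (SE 0.16, edgeR adjusted p = 0.0141) with overlapping groups, and the call was lost without any one of wildtype libraries 1 and 3 and knockout libraries 1 and 3. The call was kept in 6 of 14 alternatives. Csmd3, a large membrane protein with CUB and sushi domains, lay at 2093 kb and fell by 0.80, from 13.6, 13.8 and 13.2 CPM to 7.28, 7.35 and 8.62 CPM. Slitrk1, a synaptic adhesion protein at 1836 kb, fell by 2.19, from 13.2, 12.4 and 13.1 CPM to 1.61, 3.46 and 3.42 CPM. Together with Epha7, these 5 changes did not follow the order of distance.

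Ion channel and neurotransmitter receptor genes had 19 isolated windows, of which 14 fell and 0 rose (edgeR; also 0 at an unadjusted p of 0.05 and in DESeq2, which called 11 falls). Across the alternatives that tested all 19, 10 to 14 fell. Their median log2 fold change was -0.88. Other windows at their mean counts fell in 39.3% and other windows of the same role in 42.8%, against 73.7% here. Of 7 potassium channel genes, 6 fell, or 85.7%. Other windows at their mean counts fell in 52.5% and other potassium channel windows in 39.3%. Kcnn2, a calcium-activated potassium channel of neurons, had 33.6, 30.5 and 32.7 CPM in wildtype and 10.1, 11.7 and 10.8 CPM in knockout and fell by 1.57 on the log2 scale (SE 0.12, edgeR adjusted p = 1.21e-34). Kcnmb2, an auxiliary subunit of large-conductance potassium channels, had the largest fall of the role, by 2.05. Kcnj3, a subunit of G-protein-gated potassium channels, was as accessible as Kcnn2 and did not change beyond the spread: it was at 30.1, 31.6 and 30.5 CPM in wildtype and 32.5, 29.0 and 28.1 CPM in knockout, with overlapping groups and a log2 fold change of -0.04 (SE 0.11). The weakest calls, Kcnb2 and Oprk1, had overlapping groups and were each lost without any one of 4 libraries (wildtype 2 and 3, knockout 1 and 2). Of 14 alternatives, the call was kept in 4 for Kcnb2 and 6 for Oprk1. Of 6 glutamate receptor genes, 3 fell, namely Grik2, Grm7 (lost without wildtype library 2 or 3) and Grik3 (lost with loess scaling). Gria1, Gria4 and Grm3 stood at -0.48 to -0.38 without passing the test. Other windows at the mean counts of these 6 genes fell in 28.3%, and 5 of 13 other glutamate receptor windows fell.

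Secreted signals and their receptors had 15 isolated windows, of which 12 fell and 0 rose (edgeR; 1 rose at an unadjusted p of 0.05, and DESeq2 called 12 falls and 1 gain). The median log2 fold change was -1.06, and 12 or 13 fell across the alternatives that tested all 15. One of the 12, Galnt13, is a glycosyltransferase gene that the symbol pattern took in by its first letters. Other windows at these mean counts fell in 40.4%, against 80.0% here, and other windows of the role in 37.4%. Erbb4, a receptor for neuregulins, had 17.5, 16.0 and 14.4 CPM in wildtype and 2.24, 3.52 and 4.34 CPM in knockout and fell by 2.25 (SE 0.17, edgeR adjusted p = 8.37e-40). Hgf, the ligand of the receptor MET, went from 23.6, 25.8 and 25.9 CPM to 7.34, 8.003 and 9.66 CPM, a fall by 1.59. Vegfc, a growth factor of lymphatic vessels, went from 60.9, 58.7 and 59.4 CPM to 23.6, 20.4 and 24.6 CPM, a fall by 1.38. Dkk2, a secreted modulator of Wnt signals, fell by 1.65.

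The changes at the most accessible windows of this role were smaller. Fzd1, a Wnt receptor, was at 140, 122 and 120 CPM in wildtype and 90.3, 79.0 and 81.0 CPM in knockout, a fall by 0.61. Il15, a cytokine for natural killer cells and memory T cells, was at 112, 125 and 115 CPM in wildtype and 156, 135 and 129 CPM in knockout; the groups do not overlap, and the log2 fold change of 0.25 had an adjusted p of 0.119 in edgeR. Il15 passed the test under 6 of 14 alternatives. Cxcl12, a chemokine of thymic stroma, stood at 53.7 ± 5.29 CPM (SD, n = 3) in the wildtype and 56.4 ± 5.50 CPM (SD, n = 3) in the knockout libraries.

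Transcription factor genes moved in both directions. Of 25 isolated windows, 14 fell and 4 rose, with a median log2 fold change of -0.42; other windows at their mean counts fell in 28.6% and other windows of the role in 24.2%, against 56.0% here. One of the 14, Arhgap24, encodes a GTPase-activating protein and was taken in by its first letters. Dach1, a cofactor of eye and limb development, had 39.0, 32.7 and 39.7 CPM in wildtype and 6.82, 6.21 and 10.6 CPM in knockout and fell by 2.24 (SE 0.13, edgeR adjusted p = 2.26e-65). Atoh1, a factor of hair cells and secretory gut cells, fell by 1.39, from 31.1, 30.6 and 29.8 CPM to 12.9, 10.2 and 11.9 CPM. Mycn, a growth regulator, fell by 1.14, from 60.5, 54.6 and 51.6 CPM to 26.5, 24.3 and 24.7 CPM. Foxa2, a factor of gut, liver and lung endoderm, fell by 0.57, from 47.0, 41.1 and 43.7 CPM to 31.2, 28.9 and 29.2 CPM. Hnf4g, a nuclear receptor of intestine and kidney, fell by 0.97 at 1286 kb from other windows.

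At the upper end of this role, Maf, a leucine zipper factor, was at 180, 212 and 183 CPM in wildtype and 272, 231 and 215 CPM in knockout. It rose by 0.32 (SE 0.13, edgeR adjusted p = 0.0465), a call that was lost without wildtype library 1, wildtype library 3 or knockout library 2. Eya4 rose by 0.45, Zfp608 by 0.44 and Runx1, a factor of blood cell formation, by 0.43, and all 3 calls were lost without wildtype library 1. The call for Runx1 was also lost without knockout library 3 and was kept in 10 of 14 alternatives.

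Extracellular matrix and protease genes had 8 isolated windows, of which 5 fell and 1 rose, with a median log2 fold change of -0.83; other windows at their mean counts fell in 28.7% and other windows of the role in 42.3%. Hs3st5, a sulfotransferase of heparan sulfate, was the most accessible, at 64.7, 65.1 and 53.3 CPM in wildtype and 37.99, 36.4 and 33.2 CPM in knockout, and fell by 0.77 (SE 0.11, edgeR adjusted p = 1.67e-10). Spock3, a matrix proteoglycan, fell by 1.85 and Mmp16, a membrane-bound metalloprotease, by 1.83. Adamtsl1, a secreted relative of the ADAMTS proteases, rose by 0.31, from 30.1, 31.3 and 30.1 CPM to 41.0, 36.8 and 35.5 CPM, and the call was lost without any one of 4 libraries (wildtype 1 and 3, knockout 1 and 2). This call was kept in 9 of 14 alternatives.

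**Figure D5:**
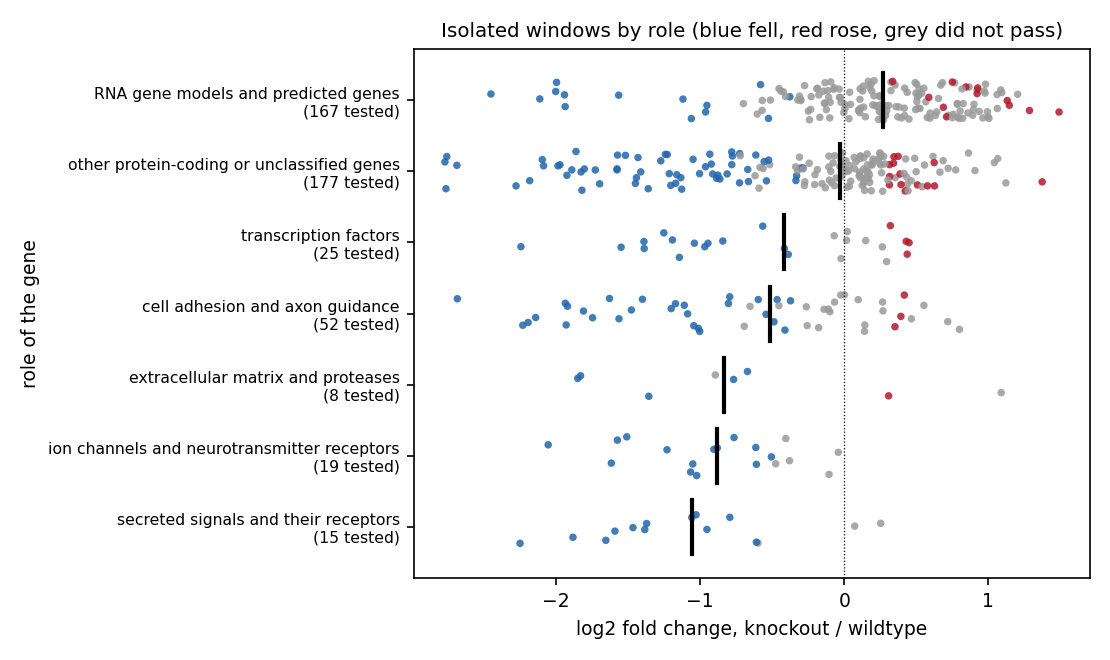
Log2 fold change (knockout over wildtype) of every tested isolated window by role of the gene, with vertical jitter for display; blue fell, red rose, grey did not pass the test, and the black bar is the median. Medians go from -1.06 for secreted signals to 0.27 for RNA gene models and predicted genes.

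The remaining 177 protein-coding or unclassified genes held 61 falls and 14 gains, with a median log2 fold change of -0.03; other windows at their mean counts fell in 22.4%, against 34.5% here. The most accessible isolated windows were in this group. Tle4, a Groucho-type corepressor, was at 274, 263 and 250 CPM in wildtype and 362, 303 and 287 CPM in knockout, and Rap2b, a small GTPase, at 254, 268 and 249 CPM and 367, 294 and 289 CPM. In both, every knockout library was above every wildtype library, while the log2 fold changes of 0.27 and 0.30 had adjusted p of 0.109 and 0.0697 in edgeR. The call was reached under 7 of 14 alternatives for Tle4 and 10 of 14 for Rap2b. Syt1, the calcium sensor of synaptic vesicle release, was the next most accessible, at 256, 255 and 247 CPM in wildtype and 283, 224 and 223 CPM in knockout, with overlapping groups and a log2 fold change of -0.06. Syt1 passed the test as lower under 3 of 14 alternatives, among them leaving out knockout library 1 (adjusted p = 0.0313, edgeR). Pcmtd1, a methyltransferase-like protein, was at 235, 216 and 206 CPM against 274, 210 and 211 CPM, likewise overlapping. Ppargc1a, a coactivator of mitochondrial genes, fell by 1.83, from 55.9, 53.3 and 57.4 CPM to 13.8, 13.7 and 19.6 CPM, and Dio2, which activates thyroid hormone, fell by 1.36. Tox, a regulator of T cell development, rose by 0.63, from 81.8, 102 and 81.5 CPM to 158, 128 and 123 CPM, with groups that do not overlap. Just beyond the distance limit, Bend5 fell by 0.78 and Piezo2 stood at -0.62 without passing the test, though it passed without knockout library 3 (-0.92, edgeR adjusted p = 0.0284); just within it, Gm10440 and Gm8069 stood at -0.26 and 0.09, also without passing it.

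RNA gene models and predicted genes had few falls at low counts. Of 173 windows, 167 were tested, of which 14 fell and 12 rose. The share that fell was 8.38%, against 11.2% of other windows at their mean counts. Other windows of the same kind fell in 19.9%, a raw share not matched on mean count. The 167 tested windows had a median of 27.3 counts and a median log2 fold change of 0.27. The number that rose went from 4 (without wildtype library 1 or knockout library 2) to 46 without knockout library 1. By RefSeq type, 4 of 83 tested lncRNA windows fell (4.82%) and 10 rose (edgeR). Other windows at their mean counts fell in 11.3%, and other lncRNA windows at those counts in 12.1%. In either direction, 0 of 14 pseudogene, 0 of 13 transcribed pseudogene and 0 of 7 tested miRNA windows passed the test (edgeR). At an unadjusted p of 0.05, 2 pseudogene windows were higher and no others, and DESeq2 called 0. Other windows at the mean counts of these types fell in 4.32%, 2.88% and 3.35%, in the same order. Others of the same type fell in 3.11%, 1.92% and 4.23% at those counts. With so few windows, 0 falls cannot be told apart from these shares. The most accessible were 3100003L05Rik, at 59.3 ± 8.54 CPM (SD, n = 3) in the wildtype and 59.4 ± 1.87 CPM (SD, n = 3) in the knockout libraries, and a gene model without a symbol on chromosome 9 (117249536 to 117254536), which fell by 0.53.

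The largest gains were at windows with few counts. Gm10823, on chromosome 16, was at 0.308, 0.575 and 0.886 CPM in wildtype and 0.974, 1.91 and 2.08 CPM in knockout, and rose by 1.49 (SE 0.50, edgeR adjusted p = 0.0143). Gm8526 rose by 1.29, from 0.410, 0.384 and 0.886 CPM to 0.974, 1.19 and 1.96 CPM. The groups do not overlap in either, but the highest wildtype library lies close to the lowest knockout library, and each call was lost without any one of 4 libraries (wildtype 1 and 2, knockout 2 and 3). Of 13 alternatives that tested them, the call was kept in 9 for Gm10823 and 6 for Gm8526. Gm10280 rose by 0.93, and its call was lost without any one of the same 4 libraries and with library totals. Skint6, of a family expressed in thymic epithelium and skin that guides epidermal T cells, was the only protein-coding gene among the 6 largest gains with separated groups. It had 1.38, 2.56 and 2.84 CPM in wildtype and 5.56, 5.91 and 5.93 CPM in knockout and rose by 1.37 (SE 0.25, edgeR adjusted p = 2.27e-07), a call that passed under every alternative tried. Members of the Skint family are similar in sequence, and reads of such copies may not be assigned with certainty. Macrod2os2, a transcript opposite Macrod2, rose by 0.92, and 8430436N08Rik by 0.84. ATAC-seq reads carry no strand, so those in the Macrod2os2 window cannot be assigned to one. No other promoter window, that of Macrod2 included, lay within 333.3 kb of the Macrod2os2 window. Gm20362 and 4930555F03Rik rose by 1.13 and 1.15 with overlapping groups, and these calls were kept in 2 and 1 of the 6 fits that left out a library.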

How the data were processed

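The values are whole-number counts per promoter window in 6 ATAC-seq libraries, deposited by the authors. Counting with featureCounts on mm10 is per the submitters' processing notes, and reads were paired-end of 75 bases per the labels. The sources used here do not give the aligner, duplicate removal or any transposase shift. Most windows span 5001 bases, from 3000 bases before the gene start. Windows whose distance to every other window on the chromosome exceeded 300 kb were taken as isolated; 4 had a neighbour on 1 side only, being the outermost on their chromosome.

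The test was edgeR 4.0.16 in R 4.3.3 (filterByExpr, TMM, robust quasi-likelihood, Benjamini-Hochberg at 0.05, all windows). The prior count was 0.125. Simulated data served as a check. CPM use TMM. Other windows' shares were weighted to the isolated windows' numbers in 20 mean-count bins. Shares of other windows of the same role or family were left raw. Each role was assigned from symbol patterns. Named windows were the 10 largest falls and 6 largest gains with separated groups, the 5 most accessible, the 5 farthest, the 2 most accessible per role and the 2 on each side of 300 kb; 1 window that this rule names is not reported here. Further windows, among them Ppargc1a, Tox, Hgf, Vegfc, Atoh1, Mycn, Foxa2, the ephrin receptors and the cadherins, were named after their values were seen. Windows, lists and roles were chosen with earlier results of these data known. Alternatives used DESeq2 1.42.0 and limma 3.58.1.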

Additional observations from a re-analysis of the deposited data

How the results depend on the processing

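Isolated windows fell more often than the others at equal mean count under all 23 settings, by 5.29 (all isolated windows against other genes of at least 100 kb) to 19 points (10.8 as reported). Falls of isolated windows numbered 136 to 151 when each library was left out, and 252 of 863 and 66 of 191 with limits of 200 and 500 kb. Gains were less stable. At equal mean count, 12.3% of isolated windows rose with loess scaling, against 16.1% of the others. These shares were 8.64% and 8.67% with library totals, and 2.57% and 2.64% without wildtype library 1. Under every other setting, isolated windows rose more often than the others. Isolated windows that rose numbered 57 with loess scaling, 55 with a mean count of at least 50, 61 with the replicate block, 68 with libraries 2 and 3 of each group only (chosen after seeing the data), 60 and 12 at 200 and 500 kb, and 12 to 81 with each library left out. All windows that rose numbered 2937 with library totals, 4324 with loess, 3937 with a mean count of at least 50, 2824 with the block, 2664 with libraries 2 and 3, and 689 (without wildtype library 1) to 3177 (without knockout library 1). Gains were 23.9% of all calls as reported, 35.6% with library totals, 47.0% with loess and 44.4% with the mean count of at least 50. That filter, which tests fewer windows, gave a median of -0.41 and 33.5% falls among the others. The block paired same-numbered libraries, whose deviations correlated at 0.374, 0.0284 and 0.389, so the numbers were not taken to pair them; other number pairs gave -0.445 to 0.308.

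Of 40 named windows, 20 kept their call and direction under all alternatives of the fit. Cntnap5a turned to 0.00671 with loess scaling. Other changes of sign were in windows that never passed the test with the new sign; their cause was not tested. Kcnj3 was at 0.012 with DESeq2 size factors and with the DESeq2 test, 0.18 with loess, and -0.11 to 0.000744 with a library left out. 3100003L05Rik was at -0.020, -0.029 and -0.10 with totals, without a filter and with libraries 2 and 3, and at -0.0809 to 0.0848 with a library left out. Pcmtd1 was at -0.0412 with loess, -0.00759 with libraries 2 and 3, and -0.0616 to 0.15 with a library left out; Gm8069 at -0.35 with loess and -0.21 to 0.57; Gm10440 at -0.85 to 0.0423; Syt1 at -0.18 to 0.00272. Matching on CpG class was not run, since under 80% of isolated windows had a promoter sequence. Counts of 3, or about 0.154 to 0.192 CPM, limit the weakest windows.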

Other observations

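The rule covered autosomes, and chromosome X held a further 47 windows with no other window within 300 kb. Of 41 that passed the filter, 11 fell (26.8%) and 4 rose, against 160 of 1007 other chromosome X windows that fell (15.9%); both are raw shares, and no test was made on them.

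Some windows with few counts belong to genes of wide interest and were chosen after their values were seen. Ins1, an insulin gene of mouse pancreatic beta cells that lies 654.7 kb from any other window, was at 0.769, 1.28 and 1.00 CPM in wildtype and 0.745, 1.91 and 1.77 CPM in knockout. The groups overlap, and its change did not pass the test (log2 fold change 0.54, edgeR adjusted p = 0.428).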
